A study of Mus musculus with 3 samples.

Results

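The 193 cells described here are the monocyte- and macrophage-like cells of a mouse skin wound 2 days after injury. They were chosen from the 7945 kept cells of that library by a rule on measured UMIs (unique molecular identifiers, which count RNA molecules). A cell needed at least 200 genes, at most 10% mitochondrial UMIs, and Pf4, Lyz2, Arg1, C1qa and C1qb together at 0.3% of its UMIs or more and at 3 UMIs or more. It also needed S100a8 and S100a9 below 1% of UMIs and no UMI of Pdgfra, Cd3e or Ccr7. These genes were used as marks of neutrophils, fibroblasts, T cells and migratory dendritic cells. The 193 cells were 2.43% of the day 2 cells (exact binomial 95% interval 2.10 to 2.79%), and the 3 libraries held 23384 kept cells in all. The macrophage-gene part of the rule was passed by 214 cells, of which the S100 limit removed 14, Pdgfra 6, Ccr7 1 and Cd3e 0.

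Back skin of C57BL/6 males, 7 to 9 weeks old, was profiled by droplet-based 3' single-cell RNA sequencing. The groups were non-lesional dorsal skin and the wound bed 2 and 7 days after a full-thickness excision measuring 1.0 by 0.5 cm. No genotype or drug is named for any group, and every sample was dissociated enzymatically (collagenase D with DNase1). Each group is 1 library, and the labels do not say how many mice it holds, so no test between groups was possible and every interval covers counting error only. The day 2 cells are those that survived digestion and droplet capture, with no sort for myeloid cells named.

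Monocytes enter a wound from the blood and become macrophages that take up debris, secrete chemokines (proteins that draw further leukocytes) and cytokines such as interleukin 1 and tumour necrosis factor, and later release factors that act on fibroblasts and vessels. Cells that sense nucleic acids from microbes or damaged cells can make interferon beta, and the type I interferon receptor then switches on a shared set of antiviral genes through STAT and IRF factors. Arginase 1 turns arginine into ornithine, a precursor of polyamines and proline, and is a widely used marker of macrophages in early wounds.

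The label was checked on genes the rule did not use, and rule genes were taken out of the marker lists of other cell types. Ptprc, the pan-leukocyte antigen CD45, had a UMI in 58.0% of the 193 cells and the lysosomal marker Cd68 in 39.4%. Csf1r, the receptor for macrophage colony-stimulating factor, was detected in 18.7%, the F4/80 gene Adgre1 in 11.4%, the monocyte chemokine receptor Ccr2 in 8.81% and the inflammatory monocyte marker Ly6c2 in 3.63%. The cells therefore carry monocyte and macrophage genes, but the classical surface markers were found in a minority of them at a median of 2108 UMIs per cell (range 509 to 12675). Of 12 neutrophil markers other than S100a8 and S100a9, 4 were at 0, Cxcr2 and Cxcr1 among them, and the 12 summed to 254 CPM (UMIs of the gene among 1000000 UMIs of the group) against 16409 CPM in the day 2 leukocytes with S100a8 and S100a9 at 1% of UMIs or more, called S100-high below. Of 14 dendritic cell markers other than Ccr7, 7 were at 0 (79.3 CPM in sum), of 9 T and NK markers other than Cd3e, 7 were at 0 (236 CPM in sum, from Icos and Il7r), and all 3 B cell markers were at 0. RNA of fibroblasts was present: 8 fibroblast markers, of which Pdgfra was set to 0 by the rule, summed to 3988 CPM, and Col1a1 had a UMI in 81.3% of the cells at 950 CPM, against 8766 CPM in the fibroblasts of the library (3722 cells with a Pdgfra and no Ptprc UMI). In 24 cells the collagen genes Col1a1, Col1a2 and Col3a1 made up 0.5% of UMIs or more, and 1 cell carried 79.4% of its UMIs in 5 erythroid genes. Whether the collagen UMIs are free RNA or fibroblast RNA in the same droplet was not tested. Scrublet, which scores doublets, placed 4 of the 193 cells among the 606 highest scores of the library. A list of 15 monocyte genes summed to 2383 CPM in the 193 cells and 4807 CPM in the S100-high cells. Whether the S100 limit also left out monocytes was not tested.

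Arg1 and Pf4 carried most of the rule. Pf4, the platelet factor 4 chemokine that macrophages also make, was the highest of the 5 rule genes in 84 cells, Arg1 in 81 and Lyz2, the macrophage lysozyme, in 27. C1qb led in 1 cell and C1qa in 0, so the complement genes selected few of the cells. On GRCm38 (GENCODE M21), Pf4 lies at chr5:90772435-90773383, Arg1 at chr10:24915221-24927484 and Lyz2 at chr10:117277331-117282321. The share of UMIs from the 5 genes had a lowest value of 0.3203%, a median of 0.641% and a highest of 3.91%. Most cells carried 2 or 3 of the 5 genes (60 and 77 cells), and 30 carried 1, 18 carried 4 and 8 carried 5. These values chose the cells and are given as a description. When Arg1 was left out of the rule, 118 cells remained, and 105 of them still had an Arg1 UMI. The threshold did not fall at a gap: 8 cells lay just inside it, at 0.30 to 0.35%, and 22 just outside, at 0.25 to 0.30%. Those outside had Cxcl2 at 55225 CPM and Ccl4 at 35509 CPM, and those inside had 55761 and 41154 CPM.

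Pf4 and its neighbour in the CXC chemokine family Ppbp are also genes of platelets. Ppbp had UMIs in 29 of the 193 cells, and all 29 also had Pf4. None of 8 other platelet genes (Itga2b, Gp9, Gp1bb, Gp1ba, Tubb1, Treml1, Nrgn and Gp6) had a UMI in any of the 193 cells.

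Chemokine RNA took the largest shares of these cells' UMIs. Cxcl2, a neutrophil attractant, took 5.69% of all their UMIs and Ccl4, a CC chemokine that draws monocytes and T cells, took 4.36%, the highest shares of any gene. Per cell, Cxcl2 had a lowest share of 0%, a median of 5.59% and a highest of 18.0%, and it was detected in 99.5% of cells. Ccl4 had a median of 3.99% and a highest of 14.6%, with a UMI in 96.9% of cells. Both genes were therefore spread over nearly all the cells. Ptgs2, the inducible prostaglandin synthase COX-2, had a median of 1.28% and a highest of 9.65%. Tnf had a median of 0.710% and a highest of 3.86%, and Il1b, the secreted interleukin 1 beta, a median of 0.679% and a highest of 5.31%. Arg1, Pf4 and Lyz2, which chose the cells, were lower, with medians of 0.294%, 0.199% and 0.0641%. Il10, an anti-inflammatory cytokine, was the opposite case: 2 cells held at least 50% of its 73 UMIs.

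**Figure D1:**
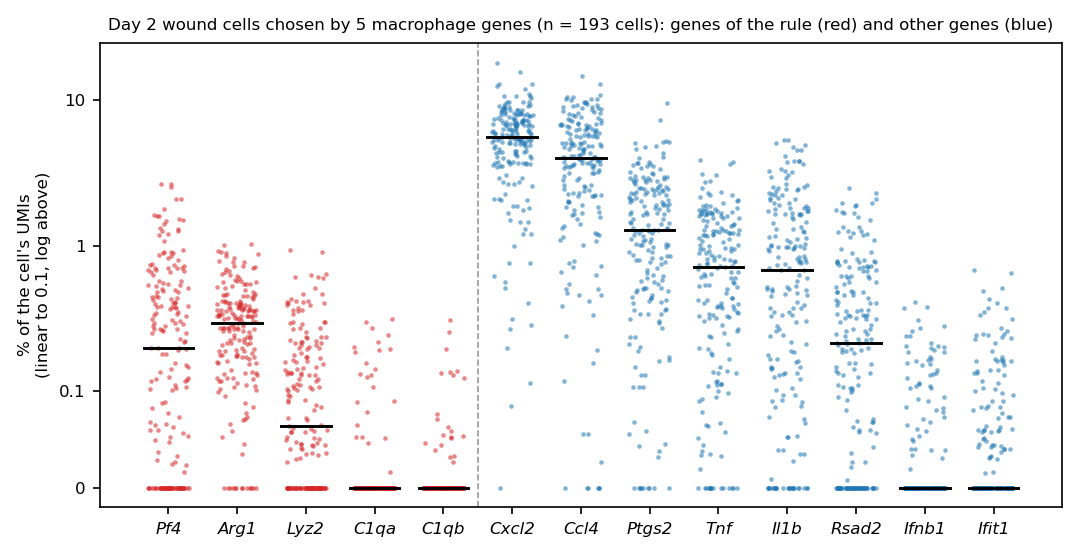
Share of each cell's UMIs (percent, vertical axis with a linear part near 0 and a log scale above) taken by 13 genes (horizontal axis) in the 193 day 2 cells, 1 point per cell, with the genes of the selection rule in red and bars at the medians. Cxcl2 and Ccl4 have medians of 5.59% and 3.99%, well above the rule genes, and Ifnb1 and Ifit1 are at 0 in most cells.

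These cells were compared with the other day 2 leukocytes, the 2011 kept cells with a Ptprc UMI outside the rule. That group is mixed: 966 were S100-high (neutrophil-like), 310 carried Ccr7, 29 carried Cd3e, 287 carried Pdgfra and 419 were none of these. The 287 Pdgfra cells contributed 10237948 of the group's 15784482 UMIs, so they set most of the summed level, and each separate group is given first below. Levels are UMIs summed over the cells of a group, as CPM, and ratios carry exact conditional 95% intervals. Since the rule chose these cells from the same counts, the comparison is a description.

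The chemokines divided into genes shared with the S100-high cells and genes that were higher here. Cxcl2 was at 56856 CPM here, 65094 in the S100-high cells, 3033 in the Ccr7 cells and 8278 in the remaining leukocytes. Ccl3, the companion of Ccl4, was at 11514 and 13415 CPM here and in the S100-high cells. Both were slightly higher in the S100-high cells, by 1.14-fold for Cxcl2 (1.13 to 1.16) and 1.17-fold for Ccl3 (1.13 to 1.20). Ccl4 was at 43634 CPM against 15448 in the S100-high cells, 2.82-fold higher (2.77 to 2.88), and Cxcl3 at 7075 against 3333 CPM, 2.12-fold higher (2.03 to 2.22). Ccl9, a monocyte and dendritic cell attractant, had 1320 CPM with a UMI in 69.9% of cells, against 146 CPM in the S100-high cells, a 9.01-fold difference (7.66 to 10.6). Ccl5, a T cell and monocyte attractant, was at 2154 CPM here, 101 in the S100-high cells and 1270 in the Ccr7 cells. The monocyte attractants Ccl2 and Ccl7, at 3268 and 1905 CPM, were also abundant in the day 2 fibroblasts, at 1666 and 1429 CPM.

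The interleukin 1 group split in the same way between the myeloid populations. Il1b was at 11864 CPM here and 13123 CPM in the S100-high cells, and at 5364 and 2875 CPM in the Ccr7 and remaining cells. Il1a, which acts at the cell surface or on release, was at 826 CPM here and 450 CPM in the S100-high cells, 1.83-fold higher (1.61 to 2.09). The receptor antagonist Il1rn was at 1743 CPM here and 4164 CPM there, 2.39-fold higher in the S100-high cells (2.22 to 2.57). The inflammasome sensor Nlrp3 was at 728 and 1790 CPM. The decoy receptor Il1r2 was at 24.4 CPM here and 754 CPM in the S100-high cells, and the receptor chain Il1rap at 20.3 and 307 CPM. The agonists were thus similar or higher in the macrophage-like cells, and the antagonist and decoy were higher in the S100-high cells.

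Tnf was at 9515 CPM with a UMI in 92.2% of cells, 3.601-fold above the S100-high cells (3.45 to 3.76) and 6.11-fold above the remaining leukocytes (5.81 to 6.42). Ptgs2 was at 16106 CPM, 1.52-fold above the S100-high cells (1.48 to 1.56). Other innate response genes were higher in the S100-high cells: Irg1, the itaconate-making enzyme, at 7408 against 1657 CPM, the C-type lectin Clec4e at 6401 against 2168 CPM, and the lipopolysaccharide co-receptor Cd14 at 2992 against 1222 CPM. Nfkbia, the NF-kappaB inhibitor and target gene, was at 11437 CPM there and 3416 CPM here.

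**Figure D2:**
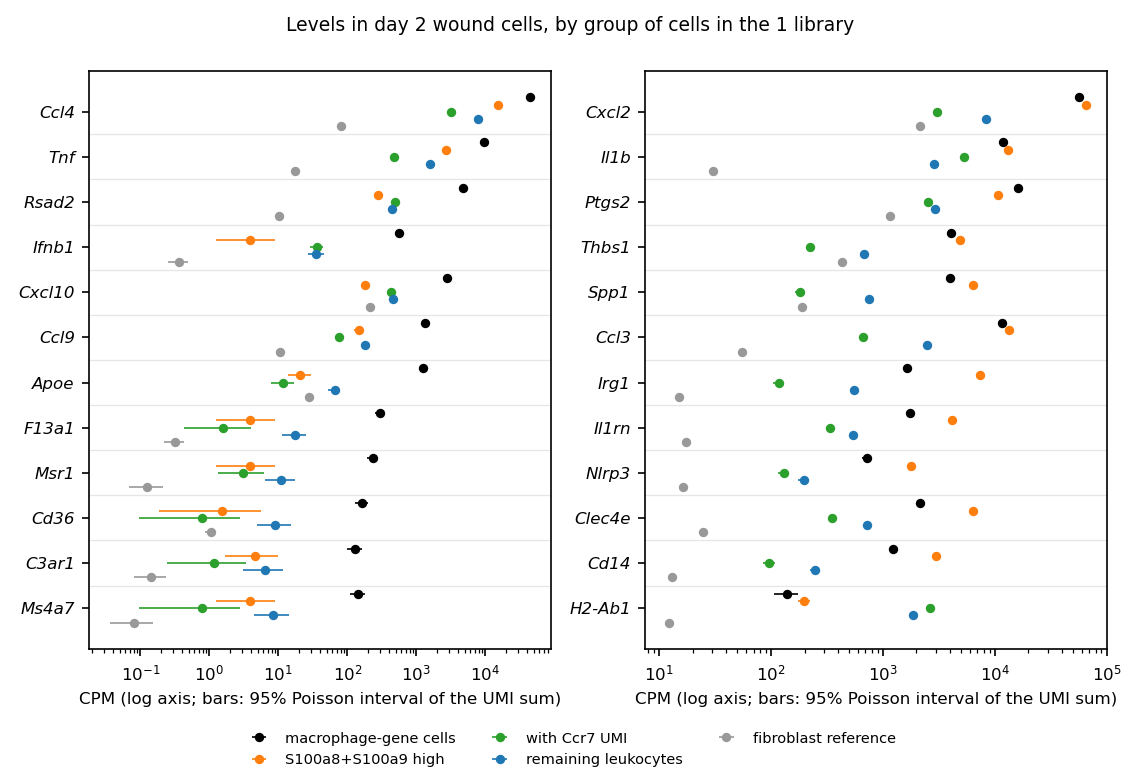
Level of each gene (CPM, log axis) in the 193 macrophage-like cells, the S100-high cells, the Ccr7 cells, the remaining leukocytes and the fibroblast reference of the day 2 library, with Poisson 95% intervals. Cxcl2 and Il1b are close in the macrophage-like and S100-high cells, while Apoe, Ccl9 and the interferon genes Rsad2 and Ifnb1 are higher in the macrophage-like cells.

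Genes of tissue macrophages and of debris handling stood well above the other leukocytes. Apoe, the lipid-carrying apolipoprotein, was at 1228 CPM here, 20.7 in the S100-high cells, 11.7 in the Ccr7 cells and 65.2 in the remaining leukocytes. F13a1, coagulation factor XIII A, was at 299 CPM against 3.83, 1.56 and 17.4 CPM in those 3 groups. The scavenger receptor Msr1 was at 232 CPM, 21.1-fold above the remaining leukocytes (12.6 to 37.5). Lgals3, galectin 3, was at 3784 CPM with a UMI in 93.3% of cells, 7.86-fold above the S100-high cells (7.18 to 8.62). Spp1, osteopontin, was at 3980 CPM here and 6407 CPM in the S100-high cells, so it did not single out the macrophage-like cells. Of the matrix and growth-factor genes, Fn1 (fibronectin) was at 1505 CPM against 114 in the S100-high cells, the activin subunit Inhba at 641 against 141, and the EGF-receptor ligand Areg at 685 against 36.8. Thbs1, the matrix protein thrombospondin 1, was at 4091 and 4855 CPM. Slc7a2, a transporter of the arginase substrate arginine, was at 148 CPM against 4.60, 32.3-fold higher (14.1 to 90.8).

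The class II antigen-presentation genes named here were lower than in the Ccr7 cells and the remaining leukocytes, and the class I gene B2m was not. H2-Ab1, an MHC class II chain, was at 138 CPM with a UMI in 11.4% of cells, against 2638 CPM in the Ccr7 cells and 1853 in the remaining leukocytes. The class II invariant chain Cd74 was at 468 against 5551 and 4371 CPM. Against the S100-high cells the class II genes were closer: H2-Ab1 was 1.44-fold lower here (1.10 to 1.91; 199 CPM there) and Cd74 1.23-fold higher (1.05 to 1.44; 380 CPM there). The class I light chain B2m was at 2062 CPM here, 958 in the S100-high cells, 1151 in the Ccr7 cells and 1165 in the remaining leukocytes, so it was highest here. The class I heavy chain H2-K1 was at 1053 against 491 CPM in the S100-high cells (2.15-fold, 1.91 to 2.41) and H2-D1 at 795 against 668 CPM (1.19-fold, 1.05 to 1.34).

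Over all genes the summed other leukocytes gave the following lists, called at 2-fold or more with 5 CPM added among genes with 10 UMIs or more over both groups. Of 13111 genes tested, 7.4% were higher and 22.9% lower in the macrophage-like cells, with a median log2 fold of -0.35. The macrophage list, without the rule genes, had 13 of 17 higher and 0 lower (median 2.74), and the lipid and lysosome list 17 of 22 higher and 2 lower (median 1.91). The interferon-induced list had 33 of 50 higher and 0 lower (median 1.54), and the chemokine list 16 of 22 higher and 1 lower (median 1.75). The inflammatory list had 14 of 26 higher and 3 lower (median 1.21). The proliferation list had 0 of 23 higher and 19 lower (median -2.07). With Pdgfra cells and collagen-rich cells left out of the other leukocytes only, a choice made after seeing the data that kept all 193 cells, 5.89% of 10302 genes were higher and 14.3% lower. The inflammatory list then had 4 higher and 2 lower (median 0.17) and the proliferation list 0 higher and 2 lower of 22 (median -0.32). The macrophage list had 11 of 15 higher (median 2.37) and the interferon-induced list 23 higher and 2 lower (median 0.81). The antigen-presentation list went from 4 higher and 8 lower of 15 (median -1.18) to 0 higher and 10 lower (median -3.09).

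Among the genes with the largest ratios in that comparison were Ppbp (287 against 1.52 CPM), Apoe, F13a1, Ifnb1, Msr1, Rsad2, Ccl9, the membrane protein Ms4a7, the fatty-acid receptor Cd36 (161 against 2.91 CPM), the complement C3a receptor C3ar1 (128 against 1.46 CPM), the collagenase Mmp13 (309 against 10.4 CPM) and Tnf. The genes with the largest ratios in the other direction included Fermt2, Cald1, Postn, Adamts5 and Tgfb2, and Fscn1 and Retnlg, genes of dendritic cells and neutrophils. Leaving the Pdgfra and collagen-rich cells out of the other leukocytes reversed Cald1 and Adamts5, to log2 folds of 0.85 and 0.10.

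Interferon genes were the second large group. Rsad2, the antiviral enzyme viperin, was at 4738 CPM with a UMI in 73.1% of the 193 cells, and its share per cell ran from 0 through a median of 0.213% to 2.48%. In the other day 2 groups it was at 276 CPM (S100-high), 495 CPM (Ccr7) and 450 CPM (remaining leukocytes). Rsad2 was thus 9.57-fold above the Ccr7 cells (8.94 to 10.3) and 17.2-fold above the S100-high cells (15.4 to 19.2). Cxcl10, a chemokine for activated T cells, was at 2753 CPM with a UMI in 70.5% of cells, 6.46-fold above the Ccr7 cells (5.96 to 7.01). The ubiquitin-like Isg15 was at 1478 CPM and the RNA sensor Ifih1 at 604 CPM, against 373 and 163 CPM in the Ccr7 cells. Ifnb1, which encodes interferon beta itself, had 276 UMIs, 561 CPM and a UMI in 30.1% of cells, against 3.83 CPM in the S100-high cells and 35.9 CPM in the Ccr7 cells. Its ratio was 15.7-fold to the Ccr7 cells (12.3 to 20.04) and 15.8-fold to the remaining leukocytes (11.8 to 21.5). Thinned to 1000 UMIs per cell, which 155 of the 193 cells reached, 25.8% of the cells held an Ifnb1 UMI (19.1 to 33.4%), against 3.26% of 307 Ccr7 cells (1.57 to 5.91%) and 0.0540% of 3703 fibroblast reference cells (0.00654 to 0.195%).

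Ifit1, an antiviral RNA-binding protein, was detected in part of the cells. It was at 820 CPM with a UMI in 43.5% of the 193 cells, a share that depended on depth: 31.6% of 155 cells thinned to 1000 UMIs (24.4 to 39.6%) and 61.0% of 59 cells thinned to 3000 UMIs (47.4 to 73.5%). In the day 2 fibroblasts the share at 1000 UMIs was 0.621% (0.394 to 0.931%). The highest single cell had 0.676% of its UMIs in Ifit1.

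The starts of 3 of these genes are printed to show a short sequence that many, but not all, of the interferon-induced list genes hold. They are the promoters of Ifit1 (chr19:34640639-34640938, plus strand), Rsad2 (chr12:26456403-26456702, minus strand) and Cxcl10 (chr5:92348840-92349139, minus strand), from RefSeq on GRCm38.p6, each with 250 bases before and 50 after the start of transcription. Capitals mark matches to GAAANNGAAA or its reverse complement TTTCNNTTTC, a core that the interferon-stimulated response element contains.
Ifit1: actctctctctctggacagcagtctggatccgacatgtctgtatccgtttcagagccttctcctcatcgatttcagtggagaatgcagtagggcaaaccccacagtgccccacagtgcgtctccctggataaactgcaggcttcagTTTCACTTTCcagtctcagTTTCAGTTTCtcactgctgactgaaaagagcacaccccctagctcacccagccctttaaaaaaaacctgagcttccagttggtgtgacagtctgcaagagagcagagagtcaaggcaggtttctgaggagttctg
Rsad2: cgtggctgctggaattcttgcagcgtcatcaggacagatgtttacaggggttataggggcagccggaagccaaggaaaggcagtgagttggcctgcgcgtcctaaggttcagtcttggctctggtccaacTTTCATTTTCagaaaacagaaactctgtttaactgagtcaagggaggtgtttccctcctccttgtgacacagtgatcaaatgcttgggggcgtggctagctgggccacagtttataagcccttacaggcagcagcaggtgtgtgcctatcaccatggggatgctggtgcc
Cxcl10: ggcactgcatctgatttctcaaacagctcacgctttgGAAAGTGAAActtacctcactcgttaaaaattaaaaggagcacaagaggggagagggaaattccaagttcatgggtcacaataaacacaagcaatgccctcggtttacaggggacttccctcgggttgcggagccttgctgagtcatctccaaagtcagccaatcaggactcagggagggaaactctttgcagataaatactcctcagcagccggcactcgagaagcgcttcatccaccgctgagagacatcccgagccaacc
Ifit1 held 2 matches side by side, and Rsad2 and Cxcl10 held 1 each. Of the 40 interferon-induced list genes with a promoter in the table, 24 (60%) held the core on either strand, against 1079 of all 27025 genes (3.99%). Among the list genes measured in the Ifit1 comparison below, 12 of 20 with the core and 6 of 12 without it were 2-fold or more higher in Ifit1-positive cells, with median log2 folds of 1.20 and 0.89. A match is a description of the letters and does not show binding.

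The 84 cells with an Ifit1 UMI were set against the 109 cells without one. The positive cells were deeper, with a median of 2612.5 against 1556 UMIs, so some cells without Ifit1 were too shallow to show it. Of 4872 genes tested, 7% were higher and 4.84% lower in the positive cells, and the median log2 fold was 0.04. Of 42 other interferon-induced genes, 22 were 2-fold or more higher and 0 lower (median 1.09) and a range of -0.26 to 4.52, and 40 were above 0. At 1000 UMIs per cell, where 9.34% of 2130 genes were higher and 8.4% lower, 12 of the 25 that could be measured were higher and 0 lower (median 0.96).

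Most of the named members of the set were higher in the positive cells. Ifit3 had 30 UMIs in the positive cells and 0 in the negative, 7.99-fold higher against a floor of 3 counts over the group. Ifit2 had 57 and 1 UMIs (45.5-fold, 7.85 to 1826) and the mitochondrial nucleotide kinase Cmpk2 66 and 5 (10.5-fold, 4.30 to 33.6). The guanylate-binding protein Gbp5, which is outside the interferon-induced list, had 168 and 19 UMIs (7.06-fold, 4.39 to 12.03). Rsad2 was at 6936 against 1987 CPM, 3.49-fold higher (3.14 to 3.88), and was detected in 95.2% against 56.0% of cells. Isg15 was at 2052 against 760 CPM, Cxcl10 at 3710 against 1557 CPM, Ifih1 at 838 against 311 CPM and the oligoadenylate-synthetase-like Oasl1 at 823 against 385 CPM. The chemokine Ccl5, also outside the list, was at 3000 against 1094 CPM, 2.74-fold higher (2.37 to 3.18). Irf7 and Usp18, which also belong to the set, had intervals that included no difference (0.913-fold, 0.533 to 1.57, and 1.60-fold, 0.555 to 5.19).

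Ifnb1 was higher where Ifit1 was detected. Its level was 882 CPM in Ifit1-positive and 160 CPM in Ifit1-negative cells, 5.50-fold higher (3.85 to 8.08). With every cell thinned to 1000 UMIs, 42.9% of 49 Ifit1-positive cells (28.8 to 57.8%) and 17.9% of 106 negative cells (11.2 to 26.6%) held an Ifnb1 UMI. These intervals do not overlap, but they count cells of 1 library. In the day 7 cells chosen by the same rule the shares were 28.2% of 71 (18.1 to 40.1%) and 17.6% of 119 (11.3 to 25.7%), and those intervals overlap.

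Most other genes differed less between Ifit1-positive and Ifit1-negative cells. Arg1 was at 2974 against 3516 CPM and Pf4 at 3527 against 4006 CPM, and Arg1 was found in 83.7% and 81.1% of thinned Ifit1-positive and Ifit1-negative cells. Tnf was at 10777 against 7935 CPM, Ccl4 at 48103 against 38040 CPM and Cxcl2 at 51161 against 63983 CPM. Il1b was at 9621 against 14670 CPM, 1.52-fold higher in the negative cells (1.45 to 1.61). Of 25 glycolysis and hypoxia genes and of 13 interleukin 1 family genes, 0 were 2-fold apart in either direction. Class II genes were higher in the positive cells: H2-Aa was at 289 against 41.2 CPM and Cd74 at 735 against 133 CPM, and 6 of 11 antigen-presentation genes were 2-fold or more higher (median 1.18). With thinned cells this was 3 of 9 (median 0.51), and in the day 7 cells it was 0 of 13 (median -0.09). The day 2 H2-Aa UMIs came from few cells. Only 12.4% of the cells held any, and the 13 cells without an Arg1 UMI held 48 of all 88.

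Fewer genes were higher in the Ifit1-negative cells, 236 against 341. Csf3, the granulocyte growth factor, was at 545 against 216 CPM (2.52-fold, 1.83 to 3.51), Lif, an interleukin 6 family cytokine, at 453 against 183 CPM and the stress-response gene Ier3 at 3040 against 1277 CPM (2.38-fold, 2.09 to 2.72). Il10 had 64 UMIs against 9, but 2 cells held at least 50% of all its UMIs. In thinned cells Il10 was present in 4.08% of Ifit1-positive and 6.60% of Ifit1-negative cells.

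At day 7 the same split gave 132 and 65 cells, and of 8129 genes tested 2.83% were higher and 2.29% lower in the positive cells. Of 46 interferon-induced genes 11 were 2-fold or more higher in the positive cells and 0 lower (median 0.61).

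**Figure D3:**
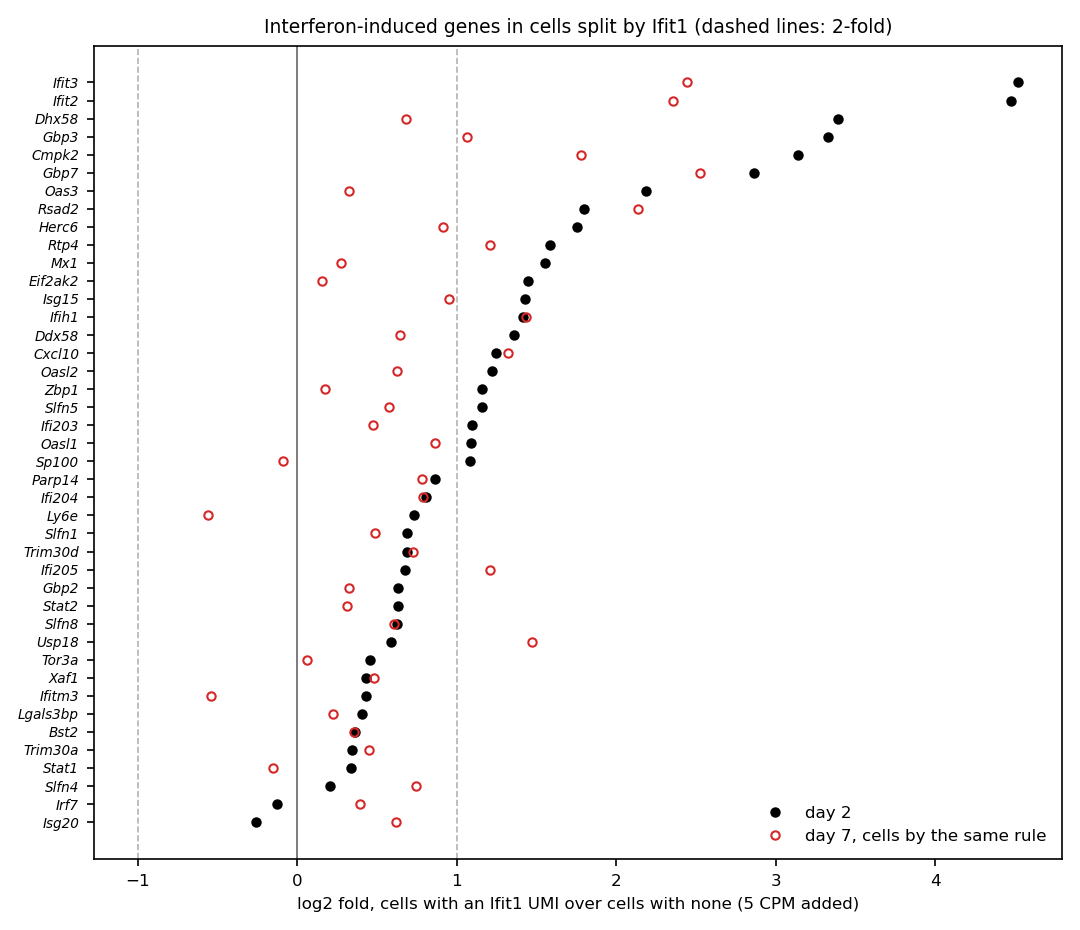
Log2 fold (Ifit1-positive over Ifit1-negative cells, 5 CPM added) of the interferon-induced genes at day 2 and at day 7, 1 point per gene and library. At day 2 the median is 1.09 with 40 of 42 genes above 0, and at day 7 the median over all 46 genes tested there, including those not drawn because they were not tested at day 2, is 0.61.

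Arg1 was found in nearly every cell, which the rule helps to set. It was at 3215 CPM with a UMI in 93.3% of the cells and in 81.9% of 155 cells thinned to 1000 UMIs (74.96 to 87.6%). Fibroblasts of the same library had it in 5.13% of cells at their own depth and in 0.513% at 1000 UMIs (0.309 to 0.8001%), and the remaining leukocytes in 9.33% at 1000 UMIs (6.47 to 12.9%). The 13 cells without an Arg1 UMI summed to 33884 UMIs, so 1 UMI among them is worth 29.5 CPM, and 1 of these cells held 12675 of the UMIs (37.4%). Of 4872 genes, 27.9% were higher and 13.8% lower in the 180 Arg1-positive cells. Among genes with 20 UMIs or more in both groups the median log2 fold was -0.47. Median-of-ratios scaling, which sets that median to 0, gave 1805 genes higher and 260 lower, against 1359 and 674. Without the deepest Arg1-negative cell, left out after seeing the data, 1828 were higher and 685 lower.

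The 12 largest differences upward, among them Ereg, Mmp13, Ppbp, Mmp12 and Cd36, were all genes at 0 UMIs in the 13 cells. Ereg, an EGF-receptor ligand, had 250 UMIs in the Arg1-positive cells, at least 6.17-fold higher, and the matrix proteases Mmp13 and Mmp12 at least 3.75-fold and 2.52-fold. Without the deepest cell these bounds were 3.86-fold for Ereg, 2.35-fold for Mmp13 and 1.57-fold for Mmp12. Serpinb2, an inhibitor of plasminogen activators, was at 1463 against 148 CPM (9.92-fold, 4.23 to 30.6). In the other direction H2-Aa was at 87.4 against 1417 CPM, H2-Ab1 at 69.9 against 1062 CPM and Cd74 at 306 against 2656 CPM. Lyz2 was at 1387 against 5017 CPM, which the rule helps to set, and the deepest cell held 119 of the 170 Lyz2 UMIs. Without that cell Lyz2 was at 2405 CPM in the other 12, and H2-Aa, H2-Ab1 and Cd74 were at 2169, 1603 and 3866 CPM. The class II genes came from few cells: 30.8% of the 13 held an H2-Aa UMI and 23.1% an H2-Ab1 UMI.

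A split of the cells at the median Arg1 share of UMIs, 0.294%, chosen after seeing the data, gave 97 and 96 cells and more even sums. Then 199 genes were higher and 318 lower. Serpinb2 was at 2048 CPM in the upper cells against 680 in the lower, Ereg at 727 against 284 and Il10 at 241 against 53.6. Apoe was at 795 against 1673 CPM. The cells below the median lay under the rule's 0.3% by Arg1 alone, so they had to carry one of the other 4 rule genes, and no level of those genes is compared here. Whether that choice also moves Apoe was not tested. Rsad2 was at 4457 against 5027 CPM and Ifnb1 at 550 against 573 CPM, both within 2-fold. In cells thinned to 1000 UMIs, Rsad2 was present in 67.7% of 127 Arg1-positive cells and in 21 of 28 Arg1-negative cells (75%; intervals 58.8 to 75.7% and 55.1 to 89.3%).

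The same rule found 116 of 10297 cells in non-lesional skin (1.13%, 0.932 to 1.35%) and 197 of 5142 at day 7 (3.83%, 3.32 to 4.39%). These cells were deeper than those of day 2, with medians of 5057 and 6234 UMIs, so shares of cells are given after thinning where they are compared. More macrophages and fewer cells of other kinds cannot be told apart from such shares. No barcode of the 193 cells recurred in another library.

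Against non-lesional skin the day 2 cells had more chemokine, inflammatory and glycolytic RNA and less class II and resident-macrophage RNA. Of 7895 genes tested, 11.5% were higher and 22% lower at day 2, with a median log2 fold of -0.22. The rule used the same 5 genes in each library, so those genes are a description here as well.

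Cxcl2 was at 56856 CPM at day 2, 24443 at day 7 and 1730 in non-lesional skin. Ccl4 was at 43634, 18967 and 2198 CPM in that order, and Ccl3 at 11514, 4381 and 243 CPM. Tnf was at 9515, 4589 and 178 CPM and Il1b at 11864, 3359 and 1301 CPM. Ptgs2 was at 16106, 3648 and 121 CPM. All 6 were highest at day 2 and intermediate at day 7, and the ratios of day 2 to day 7 ran from 2.07 for Tnf (2.00 to 2.15) to 4.42 for Ptgs2 (4.27 to 4.57). Cxcl3 was at 7075 CPM at day 2 and 1612 at day 7, and its 2 UMIs in the non-lesional cells give 3.02 CPM. Irg1 had 1 UMI in the non-lesional cells against 815 at day 2. Il1rn was at 1743 CPM at day 2 against 9.06, and the secreted protease inhibitor Slpi at 4781 against 30.2 CPM. Of 25 inflammatory genes 22 were 2-fold or more higher at day 2 than in non-lesional skin and 0 lower (median 3.18), and of 21 chemokine genes 12 were higher and 3 lower (median 1.58). Ccl8, which draws monocytes, was among those lower, at 56.9 CPM against 1976, as was Ccl24, which draws eosinophils, at 69.1 CPM against 199.

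**Figure D4:**
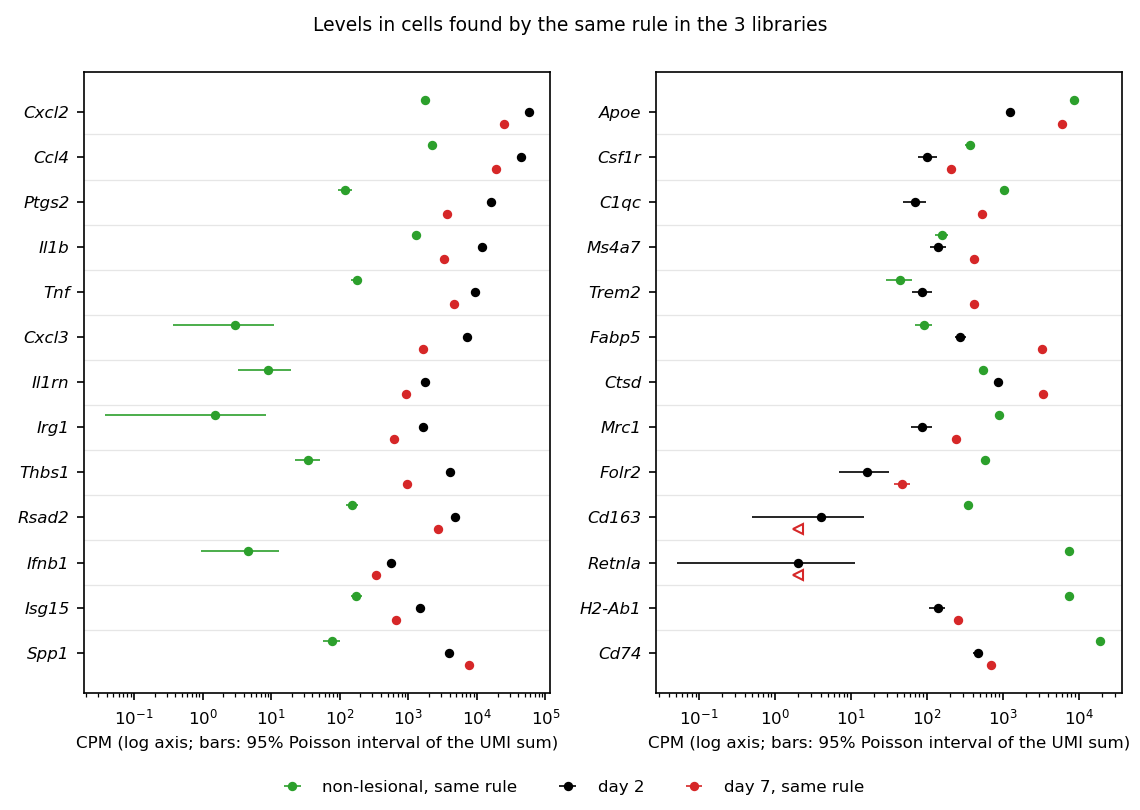
Level of each gene (CPM, log axis) in the cells chosen by the same rule in non-lesional skin, day 2 and day 7, 1 library each, with Poisson 95% intervals and open triangles at the 3-count floor for genes with 0 UMIs. Cxcl2, Ccl4, Tnf and Ptgs2 are highest at day 2, and H2-Ab1, Cd163 and Retnla are highest in non-lesional skin.

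Arg1 had 1581 UMIs at day 2, 2448 at day 7 and 0 in the 116 non-lesional cells, which allows a share of up to 2.59% of cells with a UMI by the limit of 3 counts. Its level at day 2 was 710-fold above the floor of 3 counts over the non-lesional cells. At 1000 UMIs per cell it was found in 0 of 109 non-lesional cells (exact binomial interval up to 3.33%), 81.9% of the day 2 cells and 53.7% of 190 day 7 cells (46.3 to 60.9%). At day 2 it was at 3215 CPM and at day 7 at 1628 CPM. Slc7a2 was at 148 CPM at day 2, 23.3 at day 7 and 1.51 in non-lesional skin. Lyz2 ran the other way, at 1637, 6703 and 7222 CPM in that order, and C1qa was at 171, 794 and 1731 CPM, so the 5 rule genes contributed differently in each library. Pf4 was at 3740, 5728 and 1135 CPM.

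The energy-metabolism list was higher at day 2 than in non-lesional skin. Of 26 glycolysis and hypoxia genes 22 were 2-fold or more higher and 0 lower, with a median log2 fold of 1.65. Hif1a, the hypoxia-inducible factor, was at 614 against 77.0 CPM (7.98-fold, 5.91 to 10.96), the mitophagy receptor Bnip3 at 205 against 6.04 CPM and the glycolytic enzyme Pgk1 at 89.5 against 7.55 CPM. Against day 7 the same list had 1 of 28 higher and 0 lower (median 0.17). Immediate early and heat shock genes, a list chosen after seeing the data, had 0 of 18 higher and 10 lower than in non-lesional skin (median -1.05), with Fos at 230 against 2522 CPM. That list differs between the libraries together with the inflammatory list, and its part in the result was not tested.

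Resident-macrophage and class II genes were lower at day 2. H2-Ab1 was at 138 CPM at day 2, 260 at day 7 and 7506 in non-lesional skin, and Cd74 at 468, 707 and 19207 CPM. At 1000 UMIs per cell H2-Ab1 was found in 78.9% of non-lesional, 7.10% of day 2 and 12.1% of day 7 cells. The haemoglobin scavenger receptor Cd163 was at 4.07, 0 and 350 CPM in that order and the folate receptor Folr2 at 16.3, 47.2 and 587 CPM. The hyaluronan receptor Lyve1 was at 251 CPM in non-lesional skin with 0 UMIs at day 2. That level was 41.1-fold above a floor of 3 counts over the day 2 cells. Retnla, a gene of alternatively activated macrophages, was at 7509 CPM in non-lesional skin with 1 UMI at day 2 and 0 at day 7. It was the extreme of its list: of 14 alternative-activation genes tested, 2 were higher, 6 lower and 6 within 2-fold at day 2 (median -0.76). The mannose receptor Mrc1 was at 85.4, 243 and 901 CPM. Of 20 macrophage genes 0 were higher and 15 lower at day 2 than in non-lesional skin (median -2.85), and of 15 antigen-presentation genes 2 were higher and 10 lower (median -2.75).

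Dendritic cell markers moved with this difference. The 14 other than Ccr7, which the rule set to 0, summed to 79.3 CPM at day 2, 170 at day 7 and 673 in the non-lesional cells, with Cd209a at 347 CPM in non-lesional skin and 0 UMIs at day 2, and all 7 members that could be tested were lower at day 2. When cells with H2-Ab1 at 0.1% of UMIs or more were left out of both groups, a choice made after seeing the data, 188 and 30 cells remained, and 15.6% of 6053 genes were higher and 22.9% lower. The macrophage list then had 0 of 19 higher and 15 lower (median -3.35), the inflammatory list 20 of 25 higher and 1 lower (median 2.53), the antigen-presentation list 2 of 13 higher and 7 lower (median -1.26) and the interferon-induced list 13 of 46 higher and 6 lower (median 0.36). The lower macrophage genes were therefore present with and without the class II-rich cells, and the interferon difference was smaller without them.

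Interferon genes were higher at day 2 than in non-lesional skin, and the shares of positive cells at day 2 and day 7 were close. Rsad2 was at 4738 CPM at day 2, 2755 at day 7 and 152 in non-lesional skin, Isg15 at 1478, 667 and 175 CPM and Ifit1 at 820, 672 and 183 CPM. Ifnb1 had 276 UMIs at day 2, 513 at day 7 and 3 in the non-lesional cells, or 561, 341 and 4.53 CPM. At 1000 UMIs per cell Ifnb1 was found in 0.917% of non-lesional (0.0232 to 5.01%), 25.8% of day 2 and 21.6% of day 7 cells (16.0 to 28.1%), and the last pair of intervals overlap. Rsad2 was found in 11.01%, 69.0% and 69.5%, and Ifit1 in 11.01%, 31.6% and 37.4%. Of 48 interferon-induced genes 23 were 2-fold or more higher and 2 lower than in non-lesional skin (median 0.97). Against day 7 (3.7% of 8729 genes higher, 9.94% lower), 14 of 48 were higher at day 2 and 0 lower (median 0.71). With each cell weighted equally, 6 of 48 were higher and 0 lower (median 0.30). In cells thinned to 1000 UMIs, 8 of 38 were higher and 1 lower (median 0.48). Cmpk2, a member of the list, was at 144 against 21.3 CPM (6.79-fold, 4.41 to 10.6). Gbp5, which is outside the list, was at 380 against 136 CPM.

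The day 7 cells had more RNA of mature and lipid-handling macrophages. Of 8729 genes tested, 3.7% were higher and 9.94% lower at day 2, with a median log2 fold of -0.15. Of 18 macrophage genes 0 were higher and 13 lower at day 2 (median -1.36), and of 22 lipid and lysosome genes 0 were higher and 11 lower (median -1.01). Fabp5, a fatty-acid-binding protein, was at 277 CPM at day 2 against 3311 at day 7 (11.97-fold higher at day 7, 10.1 to 14.3), and the lipoprotein lipase Lpl at 56.9 and 481 CPM. The lysosomal proteases Ctsd and Ctsb were at 864 and 1678 CPM at day 2 and 3373 and 4667 CPM at day 7. The lipid receptor Trem2 was at 87.4 and 414 CPM, the glycoprotein Gpnmb at 153 and 613 CPM, Apoe at 1228 and 5978 CPM and Spp1 at 3980 and 7678 CPM. The efferocytosis receptor Mertk had 0 UMIs at day 2 and 79 at day 7, at least 8.61-fold higher at day 7, and the transcription factor Bhlhe41 0 and 96 UMIs, at least 10.5-fold higher. Ccl9 did not differ beyond counting error, at 1320 and 1225 CPM (1.08-fold, 0.984 to 1.18).

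Inflammatory and wound-response genes were higher at day 2 than at day 7. Of 25 inflammatory genes 10 were higher and 0 lower (median 0.59), of 21 chemokine genes 8 and 0 (median 0.46), and of 17 interleukin 1 family genes 6 and 0 (median 0.58). Thbs1 was at 4091 against 959 CPM (4.27-fold, 3.99 to 4.57) and Inhba at 641 against 191 CPM (3.35-fold, 2.84 to 3.94). Slfn4, a Schlafen family gene of the interferon set, was at 155 against 12.6 CPM. The genes with the largest ratios were otherwise ones that day 2 fibroblasts carried at high levels. Timp1, a metalloprotease inhibitor, was at 565 CPM against 43.2 at day 7 and 6042 CPM in the day 2 fibroblasts. Prg4 (lubricin) was at 73.2 CPM in the macrophage-like cells against 1419 in those fibroblasts, the chemokine Cxcl5 at 281 against 2613, the pentraxin Ptx3 at 134 against 1569, chemerin (Rarres2) at 146 against 1932, and the cytokine Il33 at 52.9 against 539. The 8 fibroblast markers summed to 3988 CPM at day 2, 4296 at day 7 and 6108 in non-lesional skin, and the part of fibroblast RNA in these 6 genes was not tested. Serpinb2 was at 1373 CPM here and 1364 in the fibroblasts, against 153 CPM at day 7.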

How the data were processed

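Droplet-based 3' single-cell RNA sequencing was done on back skin of C57BL/6 males in 3 libraries, non-lesional skin and wound bed at days 2 and 7, made with the v2 kit per the labels' protocols. The authors deposited 1 matrix per library, whose entries are unnormalized UMI counts for each gene in each barcode. The authors used Cell Ranger 3.0.2, Seurat 3.0 and mm10, per the submitters' processing notes, while the file headers name Cell Ranger 5.0.0. This difference was not resolved, with the calling of cells not given in the sources used here. Library totals were 123088680, 138046172 and 102345327 UMIs. Barcodes with under 200 genes or over 10% mitochondrial UMIs were left out (390 and 372 of 8707 at day 2), and no doublet caller was applied in the main values.

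UMIs were summed per group of cells and expressed as CPM. A log2 fold has 5 CPM added to both groups, and a gene was tested with 10 UMIs or more over both and called at 2-fold. Shares carry Clopper-Pearson (a count of 0 also the limit of 3 counts), single levels Poisson and ratios conditional binomial 95% intervals, which cover counting error only. For a gene at 0 UMIs in 1 group, the fold is given against a floor of 3 counts. Such a fold leaves out the counting error of the other group, so the exact interval of the ratio can begin lower. With 1 library per group no p-value is given. Thinning drew 1000 or 3000 UMIs per cell with seed 11 and left out shallower cells. Named genes had 50 CPM and 20 UMIs or more in the higher group, a UMI in 10% or more of its cells and a 2-fold difference. Mitochondrial, ribosomal, haemoglobin, Gm and Rik genes, and those of the rule or the split, were left out. The 12 largest in each direction (8 between libraries) were taken, with the rule genes, fixed markers and, for each list, the 4 largest and the 4 highest. Examples were drawn from these, and a few genes outside the rule (Fos and the genes read in fibroblasts) were chosen after their values were seen. The members, the 22 gene lists and the comparisons were chosen with earlier results of these data known. The other 2 lists (immediate early and platelet genes) were added later. Alternatives covered the cell filter, the rule, doublets, collagen-rich cells, the deepest Arg1-negative cell, equal weight per cell, the pseudocount, the low filter, the scaling and the depth. Scripts were checked on simulated data. Gene positions are from GENCODE M21 on GRCm38 and promoters from RefSeq on GRCm38.p6, found for 289 of 380 listed genes. Python 3.11.15, numpy 2.4.6, scipy 1.17.1, pandas 2.3.3 and scanpy 1.11.5 were used.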

Additional observations from a re-analysis of the deposited data

Results flagged for a closer look

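Of the genes named above, 3 had log2 folds of opposite sign in the split by Arg1 detection at day 2 and at day 7, and the difference between the days was not tested. Apoe had a log2 fold of 1.43 (Arg1-positive over Arg1-negative cells) at day 2 and -1.13 at day 7, where it was at 4491 against 9850 CPM in 142 and 55 cells. The chemokine Ccl8 was at 3.73 at day 2, with 28 UMIs against 0, and at -4.65 at day 7, with 6 against 108 UMIs. Il10 was at 5.04 at day 2, with 73 UMIs against 0, and at -1.14 at day 7, with 100 against 87 UMIs. The day 2 values rest on 13 Arg1-negative cells, in which 1 UMI is worth 29.5 CPM. Without the deepest of these cells Apoe was at 0.76. The ratio intervals of Ccl8 and Il10 without that cell began at 0.329 and 0.894, so both included no difference at day 2. With the day 2 cells split at the median Arg1 share, Apoe was at -1.07 and Ccl8 at -2.30, the same sign as at day 7, and Il10 stayed positive at 2.07. A large part of the 73 Il10 UMIs at day 2 lay in 2 cells. Cells without Arg1, and the day 2 cells below the median, had to carry another rule gene to be chosen. Whether that choice moves these genes, at either day, was not tested.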

How the results depend on the processing

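Of the counts of genes, cells and shares, 92 alternative values stayed within 1.5 times the main count or within its interval and 35 did not. Of the named genes' values 2155 stayed, 654 moved and 30 reversed. No paired analysis was possible because each group is 1 library with no replicate. For each value below the cause was not tested, except that a stricter filter tests fewer genes and thinning reads fewer cells. The number of cells was 159 with 500 genes or more, 135 at a rule share of 0.5% and 118 with Arg1 out of the rule. Thinning put the share of cells with Arg1 at 81.9% (1000 UMIs) and with Ifit1 at 31.6% (1000) and 61.0% (3000). Depth limits these shares, since 38 of the 193 cells fall below 1000 UMIs.

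Against the other leukocytes, 970 genes were higher and 3000 lower. These became 546 and 1536 without collagen-rich cells in either group, 624 and 1010 among genes of 50 CPM or more, 544 and 1572 without Pdgfra cells, and 607 and 1471 with both kinds left out of the other leukocytes only. The lower count was 1681 with equal weight per cell and 5099 with 1 CPM added. Clec4e and Irg1 reversed to log2 folds of -0.16 and -0.62 without collagen-rich cells, -0.17 and -0.63 without Pdgfra cells, -0.22 and -0.68 without both, and -0.84 and -1.39 with equal weight. Equal weight also reversed Cd14 (-0.47), Il1rn (-0.56), Nlrp3 (-0.60) and Spp1 (-0.11), and leaving both kinds out of the other leukocytes reversed Adamts5 (0.10) and Cald1 (0.85).

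For the Arg1 split, 1359 genes higher and 674 lower became 889 and 387 with Arg1 out of the rule, 199 and 318 at the median share and 338 and 192 in thinned cells. The higher count was 589 at 50 CPM, and the lower count 260 with median-of-ratios scaling. The median split reversed Apoe (-1.07), Ccl8 (-2.30), Cmpk2 (-1.53), Dek (-0.14), Hist1h1c (0.85), Ifnb1 (-0.058), Rsbn1 (-0.015) and Slc44a1 (-0.20). Leaving out the deepest Arg1-negative cell reversed Clec4n (0.41). Thinning reversed Apoe (-0.54), Dek (-0.37), H2-Q7 (-0.17), Hist1h1c (0.77), Pf4 (-0.29) and Tubb5 (0.30).

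For the Ifit1 split, 341 higher and 236 lower became 177 and 125 at 50 CPM, and 199 were higher in thinned cells, where Fabp4 reversed (-0.10). The interferon-induced list had 12 to 23 members higher and 0 lower under the 12 alternatives run. Of its 25 members tested under all of them, 14 were higher in the main values and 8 were higher in each alternative (Cmpk2, Gbp7, Ifi203, Ifih1, Ifit2, Isg15, Rsad2 and Rtp4). Against day 7, 323 higher and 868 lower became 499 and 1417 with 1 CPM added and 158 and 244 at 50 CPM, and 458 were lower in thinned cells. Against non-lesional skin, 906 higher and 1738 lower became 569 and 754 at 50 CPM, and 810 were lower in thinned cells.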
